A study of Mus musculus with 4 samples.

Results

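Rab GTPases are small membrane-bound switches that give each step of vesicle traffic its identity. Loaded with GTP by an exchange factor, a Rab sits on its membrane and recruits effectors such as tethers and motor adaptors, and a GTPase-activating protein then returns it to the GDP form, which a GDP dissociation inhibitor extracts and carries back. Retinal ganglion cells, the output neurons of the eye, depend on this traffic along the axons of the optic nerve, where vesicles, endosomes and growth material are moved over long distances. MicroRNA miR-132-3p is a short regulatory RNA of neurons, which pairs through its seed with matching letters in the 3' untranslated regions (3' UTRs) of messenger RNAs.

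The Rab family was taken by name, as every gene whose mouse symbol is Rab followed by a number and an optional letter and digit, with pseudogenes left out. This gave 59 genes among 78334 gene identifiers in the count table, of which 47 had enough reads to be tested among 11427 tested genes. They were grouped by the trafficking step each is best known for. The comparison asks how the transcripts of the Rab genes differ between injured ganglion cells with and without a virus that targets miR-132-3p.

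All libraries came from wild-type mice of both sexes, 8 to 12 weeks old, whose optic nerve had been crushed. In one group the virus, an adeno-associated vector (AAV2), carried an shRNA against miR-132-3p together with the red fluorescent protein mCherry. In the other it carried a scramble shRNA, also with mCherry. Eyes were injected into the vitreous with 2 µl at 8 weeks of age, the crush followed 2 weeks later, and the retinas were taken after another 2 weeks. For each condition 10 retinas were pooled, about 40% of ganglion cells were stated to be transduced, and about 5000 mCherry-positive cells per replicate were panned on the surface protein Thy1 and sorted. There was no uninjured group and no group without virus. The column names pair with the groups only by exclusion for the scramble libraries, because their columns carry the name of mCherry, and every direction below rests on that assignment.

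Each group had 2 libraries, with 1845090 and 1846637 counts for scramble and 1732416 and 1731199 for anti-miR132-3p. The libraries of a group differed by no more than sampling noise. Divided by its degrees of freedom, the chi-square of their gene counts was 1.01 in scramble and 0.990 in anti-miR132-3p, against 4.39 to 4.41 between libraries of different groups. Each pair was therefore counted as 1 sample, and there was no replicate check of any difference. The p-values below compare the reads of these libraries and not the conditions. Mir132 itself had 0 counts in all 4 libraries, as polyadenylated RNA does not measure a mature microRNA, so the knockdown could not be checked here. In these bulk samples, fewer cells of a type and less RNA per cell cannot be told apart.

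Markers of the sorted cell and of its neighbours moved between the groups. Of 15 ganglion cell markers all had counts, and their summed level was 2089 to 2112 CPM (counts per 1000000 of the library total) in the scramble libraries and 2242 to 2296 in the anti-miR132-3p libraries. Of 14 that were tested, 3 were called higher (Thy1, Tubb3 and Nefm) and 3 lower (Pou4f1, Ebf1 and Nefh). Their log2 fold changes were above 0 for 6 of the 14 and below 0 for 8, with a median of -0.16, although the sum was higher. Thy1, on which the cells were panned, had 817 counts with scramble and 1148 with anti-miR132-3p. Over all tested genes 13.5% were called higher and 10.4% lower, by the rule given below. The list of 9 amacrine cell markers summed to 1446 to 1450 and 2606 to 2661 CPM, 4 of 6 tested were higher, and Gad1, Slc32a1 and Tfap2b were at 0. For 17 markers of microglia and other leukocytes the sums were 4.87 to 4.88 and 82.0 to 90.1 CPM, 3 of 3 tested were higher, and Trem2, Itgam and Fcrls were at 0. The tested ones were Cd74, H2-Ab1 and Ctss, with 126, 47 and 51 of the 298 counts with anti-miR132-3p, and 14 were too low to test. Müller glia and astrocyte markers (12) summed to 1755 to 1761 and 2334 to 2344 CPM, with 2 of 7 tested higher (Apoe and Dkk3). Dkk3 alone held 3955 of their 6490 counts with scramble and 5577 of their 8101 with anti-miR132-3p. Log2 fold changes were above 0 for 3 of the 7 and below 0 for 4, with a median of -0.01. Rod markers (13) summed to 104 to 108 and 26.6 to 29.4 CPM, 3 of 4 tested were lower, and Gnat1, Pde6g and Prph2 were among those at 0. The 7 endothelial markers had 9 counts with scramble and 16 with anti-miR132-3p, and the 6 markers of the retinal pigment epithelium had 20 and 10. The part of these cells in the values of the Rab genes was not tested.

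The sequences that link the virus to the Rab transcripts are shown first, because they fix which Rab genes carry a match to the targeted microRNA. Capitals mark the seed, bases 2 to 8, in the mature microRNA (RefSeq) and the letters that pair with it in the insert of the shRNA. The scramble insert holds no such run.

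mmu-miR-132-3p: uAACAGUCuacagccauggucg
anti-miR132-3p insert: cgaccatggctgtaGACTGTTa
scramble insert: tcgagggcgacttaaccttagg

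Matches were searched on the sense strand of the longest annotated 3' UTR of each gene (GENCODE M21, build GRCm38) as GACTGTT, or as GACTGTTA where an A follows, which counts as the 8-letter match. Of the 47 tested Rab genes 8 held at least 1 such match, 17.0%, against 14.2% of 10400 tested genes with a 3' UTR. They were Rab3b, Rab8b, Rab11a, Rab15, Rab21, Rab33b, Rab36 and Rab40c. The sites below are those of the members called in the comparison (Rab3b and Rab21), that of Rab11a, which alone had the 8-letter match, and the first sites of Rab15 and Rab8b, which had 2 each. Capitals mark the match.

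Rab3b: ctccagttggttcttGACTGTTgggatac
Rab21: aaataagttaaacttGACTGTTgaagagc
Rab11a: ttaataaacacaaagGACTGTTAtggttt
Rab15: ctctgccccagggagGACTGTTcaccctg
Rab8b: ttagtatttacctctGACTGTTtggtgtc

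Most Rab transcripts differed little between the groups. Among those that changed, Rab5b and Rab5c were higher and Rab3b, Rab21 and Rab14 lower by the widest margins. A gene was called when its adjusted p was under 0.05 by edgeR's quasi-likelihood test with Benjamini-Hochberg adjustment, made over the whole set of tested genes. By this rule 10 of 47 tested Rab genes were called, 21.3%, and over all tested genes the share was 23.8%. The Rab genes were thus called about as often as any tested gene. Rab1b, Rab5b and Rab5c were higher with anti-miR132-3p, where 13.5% of all tested genes were called higher. Rab1a, Rab3b, Rab7, Rab8a, Rab10, Rab14 and Rab21 were lower, where 10.4% of all tested genes were called lower. With library totals in place of scaling factors, 4 Rab genes were called higher and 4 lower, and 1536 and 888 of all tested genes. Of the 10, Rab5b, Rab5c, Rab3b and Rab21 also differed by at least 1.5-fold, which 10.8% of all tested genes did.

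Folds, single-gene CPM and subfamily sums use library totals scaled by TMM factors, and sums over steps and other lists use unscaled totals. A fold is the ratio of the summed pairs, with an exact 95% interval that covers counting error only. Across the 47 tested genes the median log2 fold change was -0.07, against -0.003 over all tested genes. 33 of the 47 lay within 1.25-fold, a range that held 59.9% of all tested genes. Values were above 0 for 17 members and below 0 for 30. The libraries of the groups did not overlap in CPM for 28 members, all 10 called ones among them, and for 61.8% of all tested genes. By the interval alone, which was chosen as a rule after the values were seen, 5 members were higher and 10 lower, 31.9% against 36.5% of all tested genes.

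Most calls were lost when 1 library was left out. Without scramble replicate 1, or without scramble replicate 2, edgeR's quasi-likelihood test called 0 Rab genes and 0 of all 11427 tested genes, although 10 had an unadjusted p under 0.05 in the first case (4 higher, 6 lower) and 10 in the other (3 higher, 7 lower). Without anti-miR132-3p replicate 1 it called Rab14 and Rab3b, and without anti-miR132-3p replicate 2 it called Rab14. DESeq2 on all 4 libraries called Rab5b higher and Rab14 and Rab3b lower. Without scramble replicate 1 and without scramble replicate 2, the log2 fold changes were -0.45 and -0.48 for Rab14 (-0.47 with all libraries), -1.23 and -1.32 for Rab3b (-1.27), and -0.64 and -0.62 for Rab21 (-0.63). Those of Rab5b were 0.58 and 1.01 (0.78) and those of Rab5c 0.92 and 0.45 (0.66). The sign of each of the 10 called genes was the same in all 14 other settings that were tried. These settings reuse the same 4 libraries, and the 1.5-fold minimum keeps the fold changes as reported, so the shared sign is no independent check.

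**Figure D1:**
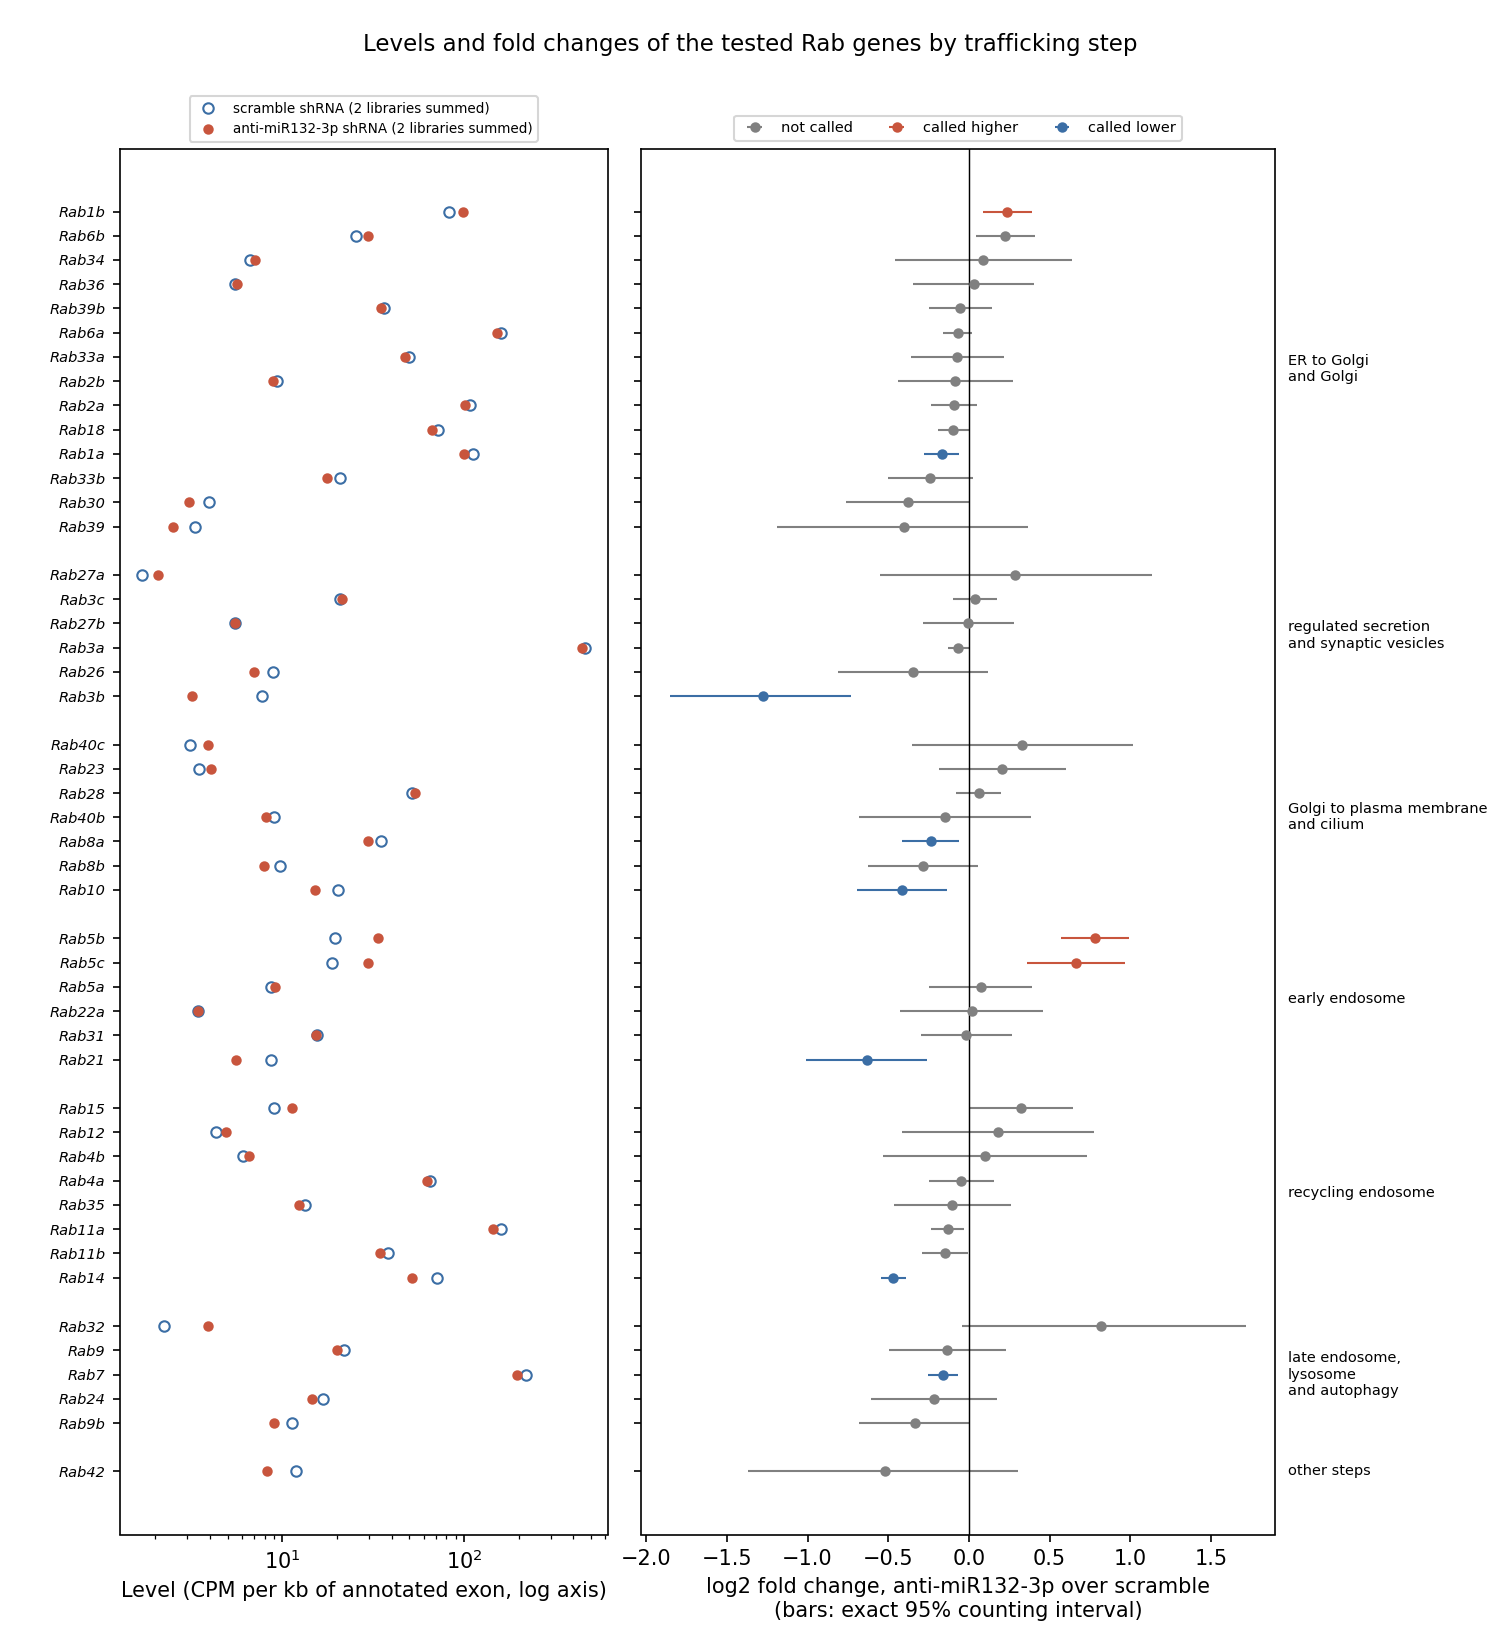
Levels of the 47 tested Rab genes in CPM per kb of annotated exon (left, log axis, each point the sum of a group's 2 libraries) and log2 fold changes of anti-miR132-3p over scramble (right, bars are exact 95% counting intervals), ordered by trafficking step. Rab3a has the highest level, 465 and 445 CPM per kb, and most fold changes lie near 0, with Rab3b at -1.27 and Rab5b at 0.78 among the widest apart of the called genes.

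As a family, the 59 Rab genes held 26777 counts with scramble and 23760 with anti-miR132-3p, 7253 and 6860 CPM of the unscaled library totals. The ratio was 0.946 (0.929 to 0.962), and 0.928 on scaled totals. A large part of the difference came from 1 gene, Rab14, which had 3533 of these counts with scramble and 2442 with anti-miR132-3p. Per kb of annotated exon the highest level was that of Rab3a, the synaptic vesicle Rab, at 465 CPM per kb with scramble and 445 with anti-miR132-3p. Rab7, the late endosome Rab, followed at 219 and 195, then Rab6a, a Golgi Rab, at 159 and 152 and Rab11a, a recycling endosome Rab, at 159 and 145. The first ranks kept their order in both groups, while Rab6a and Rab11a could not be ordered with scramble. The lowest tested member was Rab27a, at 1.69 and 2.06 CPM per kb.

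Of the 6 steps, early endosome Rabs had the highest ratio of summed levels. These Rabs act on newly formed endocytic vesicles and on the early endosomes they fuse with. The 8 listed genes summed to 293 CPM with scramble and 369 with anti-miR132-3p, a ratio of 1.26 (1.16 to 1.37). Of 6 tested, 2 were called higher and 1 lower, and the changes came from a single subfamily on one side and Rab21 on the other.

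Rab5b, 1 of 3 copies of the master Rab of early endosome fusion, had 128 and 172 counts in the scramble libraries and 252 and 240 in the anti-miR132-3p libraries. Both anti-miR132-3p libraries were above both scramble libraries, and the scramble libraries lay further apart than those of the other group. Rab5b rose 1.72-fold (1.48 to 1.99), from 82.0 to 141 CPM (adjusted p = 0.000122, edgeR's quasi-likelihood test with Benjamini-Hochberg adjustment). Rab5c, the second copy that was called, had 87 and 63 counts with scramble and 118 and 109 with anti-miR132-3p. Here too the groups did not overlap, with the lowest value in scramble replicate 2. Rab5c rose 1.58-fold (1.28 to 1.96), from 41.0 to 64.9 CPM (edgeR's quasi-likelihood test with Benjamini-Hochberg adjustment, adjusted p = 0.00582). The third copy, Rab5a, had 81 and 85 counts with scramble and 83 and 84 with anti-miR132-3p. Its fold was 1.05 (0.844 to 1.31) and it was not called.

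Taken as a subfamily, the 3 Rab5 genes summed to 168 CPM with scramble and 253 with anti-miR132-3p, 1.5-fold higher (1.36 to 1.67). The make-up of the sum differed too. Rab5a was 26.9% of the Rab5 counts with scramble (exact 95% interval 23.5% to 30.6%) and 18.8% with anti-miR132-3p (16.3% to 21.6%). Rab5b was 48.7% (44.7% to 52.7%) and 55.5% (52.2% to 58.8%), but its share was 43.2% in scramble replicate 1 and 53.8% in scramble replicate 2. Rab5c was 24.4% and 25.6%. The shares of Rab5a stood apart in all libraries, 26.6% to 27.4% against 18.3% to 19.4%, whereas those of Rab5b and Rab5c moved within the scramble pair.

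Rab21, an early endosome Rab of integrin traffic, went the other way. It had 79 and 80 counts with scramble and 47 and 51 with anti-miR132-3p, and the pairs were tight and apart. Rab21 fell 1.55-fold (1.20 to 2.02), from 43.5 to 28.0 CPM (edgeR's quasi-likelihood test with Benjamini-Hochberg adjustment, adjusted p = 0.0130). It carries the seed match printed above. Rab31, which works between the Golgi and endosomes, had 109 and 108 counts with scramble and 96 and 109 with anti-miR132-3p, and Rab22a had 42 and 48 against 43 and 44. The groups overlapped for both and neither was called. Rab17 was at 0 in all libraries, and Rab20 had 0, 0, 2 and 1 counts, too few to test.

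**Figure D2:**
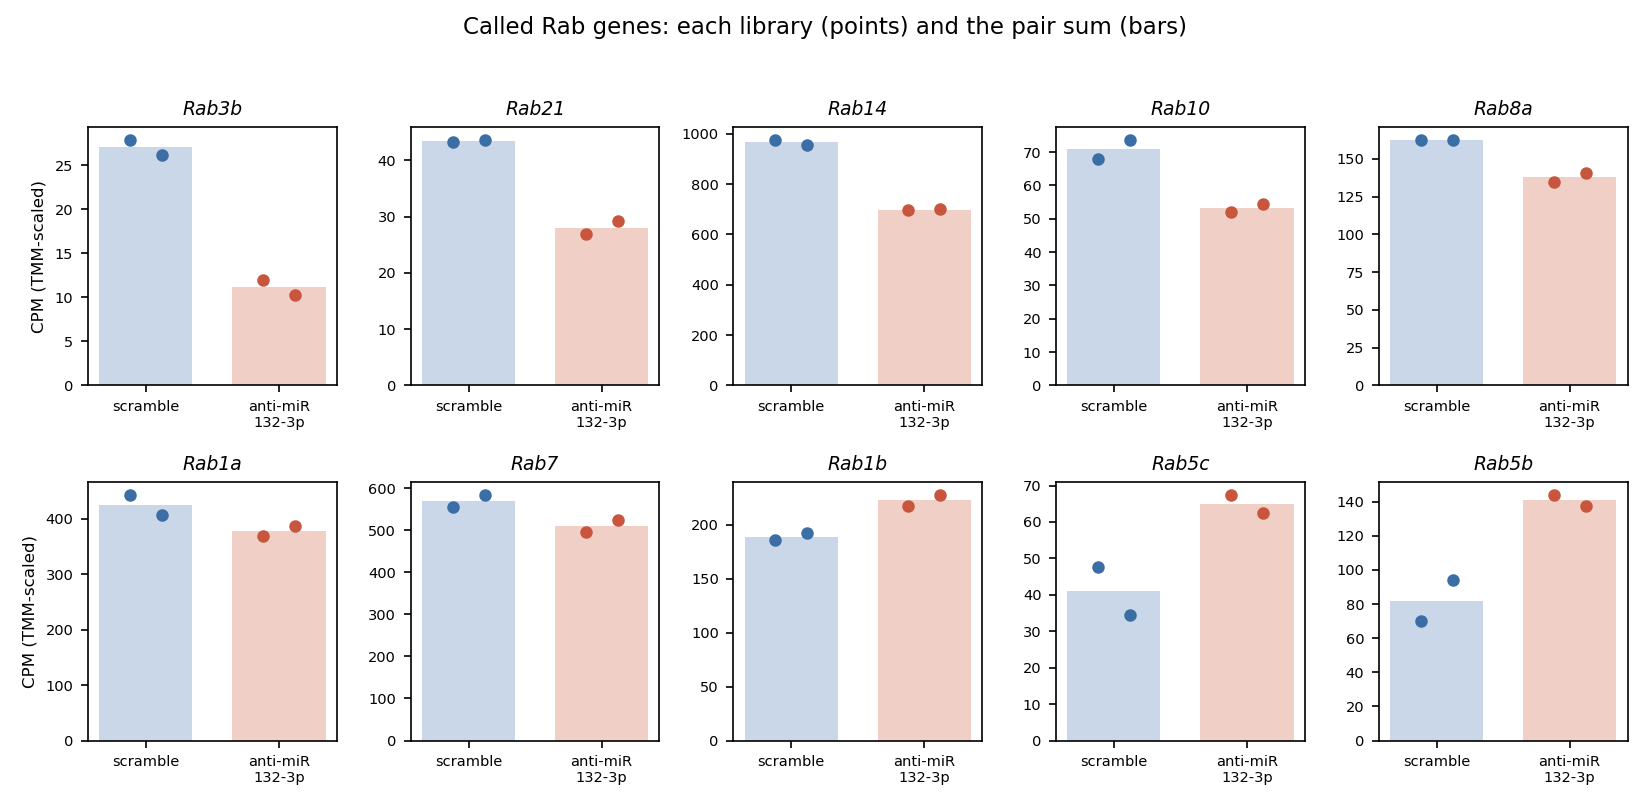
CPM of each of the 10 called Rab genes in each library, with each library as a point and the level of the summed pair as a bar. No pair of groups overlaps, and the scramble libraries of Rab5b and Rab5c are spread more widely than those of Rab14, Rab21 or Rab3b.

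Recycling endosome Rabs had a lower summed level with anti-miR132-3p. They return receptors and membrane from endosomes to the surface, and in neurons they supply membrane to growing axons. The 9 listed genes summed to 1876 CPM with scramble and 1583 with anti-miR132-3p, 1.19-fold lower (1.14 to 1.23). Without Rab14 the sums were 919 and 878 CPM, a ratio of 0.956 (0.910 to 1.00). Of 8 tested, 0 were called higher and 1 lower by edgeR's quasi-likelihood test, and the exact intervals of Rab11a and Rab11b also lay below 1, with that of Rab15 above it.

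Rab14, which works between the trans-Golgi network and recycling endosomes, had 1783 and 1750 counts with scramble and 1219 and 1223 with anti-miR132-3p. The libraries of each pair lay close together and the groups were far apart. Rab14 fell 1.38-fold (1.31 to 1.46), from 966 to 699 CPM, the smallest adjusted p of the family (1.31e-07, edgeR's quasi-likelihood test with Benjamini-Hochberg adjustment). Rab11a, the main Rab of the recycling endosome, had 868 and 871 counts with scramble and 712 and 805 with anti-miR132-3p, 1.10-fold lower (1.02 to 1.17) and not called (adjusted p = 0.0946, edgeR's quasi-likelihood test with Benjamini-Hochberg adjustment). The anti-miR132-3p libraries differed from each other here, and the 8-letter seed match printed above lies in this gene. Rab11b had 412 and 442 counts against 380 and 357, 1.11-fold lower (1.00 to 1.22) and not called.

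Within the Rab11 subfamily the intervals of the shares overlapped, Rab11a holding 67.1% of the counts with scramble and 67.3% with anti-miR132-3p. Rab4a, a Rab of fast recycling, had 211 and 205 counts with scramble and 178 and 207 with anti-miR132-3p, and the groups overlapped. Rab15 had 77 and 75 counts against 100 and 82, a fold of 1.25 (1.00 to 1.56) that was not called. Rab12, Rab35 and Rab4b overlapped between the groups, and Rab25 had 1 count in all.

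Late endosome, lysosome and autophagy Rabs deliver cargo for degradation and carry retrograde signalling endosomes in axons. Their 8 listed genes summed to 689 CPM with scramble and 627 with anti-miR132-3p, 1.10-fold lower (1.04 to 1.17). Most of this sum was Rab7, with 2086 of 2545 counts with scramble and 1782 of 2171 with anti-miR132-3p. Of 5 tested, 1 was called lower, and 0 with the GC and length correction described below. Rab7, which directs late endosomes to lysosomes, had 1016 and 1070 counts with scramble and 868 and 914 with anti-miR132-3p. It fell 1.12-fold (1.05 to 1.19), from 570 to 510 CPM (edgeR's quasi-likelihood test with Benjamini-Hochberg adjustment, adjusted p = 0.0178). Rab9b, a paralog of the late endosome Rab Rab9, had 83 and 82 counts against 65 and 60, a fold of 1.26 lower (0.994 to 1.60) that was not called. Rab32, a Rab of lysosome-related organelles and mitochondria, had 10 and 9 counts with scramble and 16 and 16 with anti-miR132-3p. Its fold of 1.76 (0.969 to 3.29) was the largest on the higher side and was not detectable at this depth (adjusted p = 0.109, edgeR's quasi-likelihood test with Benjamini-Hochberg adjustment). Rab38 was at 0, Rab29 had 3 to 6 counts per library and Rab7b at most 1.

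Rabs of regulated secretion and synaptic vesicles had summed levels close to each other, 1395 CPM with scramble and 1360 with anti-miR132-3p, a ratio of 0.975 (0.937 to 1.01). Of 6 tested, 1 was called lower. Rab3a had 1921 and 1869 counts with scramble and 1691 and 1772 with anti-miR132-3p, a fold of 0.956 (0.913 to 1.00) that was not called. Rab3c, its close relative, had 461 and 452 against 452 and 444, a fold of 1.03 (0.935 to 1.13) that was not called either.

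Rab3b, a minor synaptic vesicle isoform here, was the exception. It had 51 and 48 counts with scramble and 21 and 18 with anti-miR132-3p, and the groups were well apart at low depth. Rab3b fell 2.43-fold (1.66 to 3.61), from 27.1 to 11.2 CPM (edgeR's quasi-likelihood test with Benjamini-Hochberg adjustment, adjusted p = 0.00124). This was the largest fold change among the tested Rab genes in these libraries. Its share of the Rab3 counts was 2.06% (exact 95% interval 1.68% to 2.50%) with scramble and 0.885% (0.63% to 1.21%) with anti-miR132-3p, so that most Rab3 reads came from Rab3a in both groups. The seed match of Rab3b is printed above. Rab27a, Rab27b and Rab26, which act in granule and vesicle release, were not called, and Rab3d had 3 to 5 counts per library and Rab37 at most 6.

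**Figure D3:**
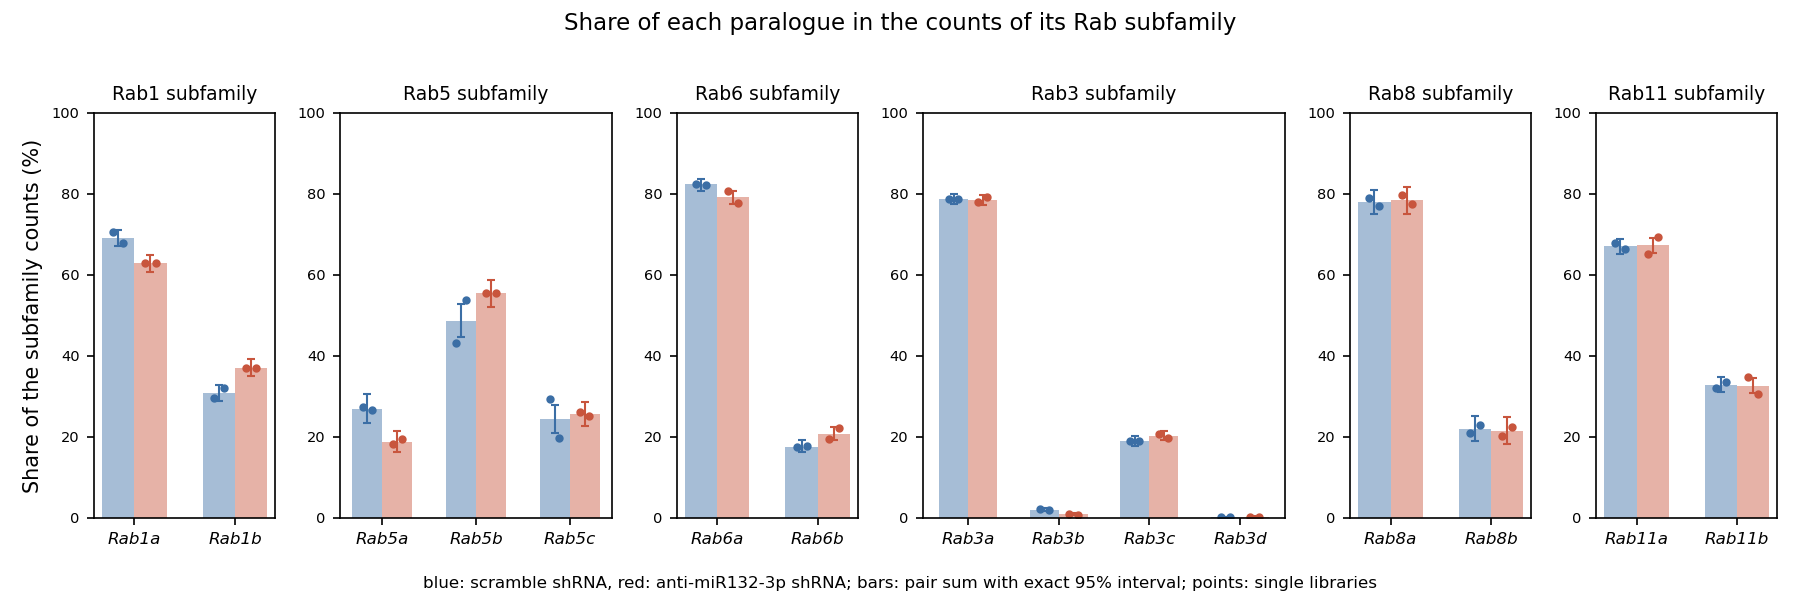
Share of each subfamily's counts (in %) held by each copy in the scramble and anti-miR132-3p pairs, with exact 95% binomial intervals. Rab1b is 30.8% and 37.1% of Rab1 and Rab5a 26.9% and 18.8% of Rab5, while the intervals of the Rab8 and Rab11 copies overlap.

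Rabs of the endoplasmic reticulum and Golgi, the largest step with 15 genes, summed to 2426 CPM with scramble and 2374 with anti-miR132-3p, a ratio of 0.979 (0.950 to 1.01). Of 14 tested, 1 was called higher and 1 lower, and these were the 2 copies of Rab1, which drives transport from the endoplasmic reticulum to the Golgi. Rab1a had 810 and 744 counts with scramble and 646 and 675 with anti-miR132-3p, and it fell 1.12-fold (1.04 to 1.21) (edgeR's quasi-likelihood test with Benjamini-Hochberg adjustment, adjusted p = 0.0345). Rab1b had 339 and 352 counts against 381 and 398, and it rose 1.18-fold (1.06 to 1.31) (edgeR's quasi-likelihood test with Benjamini-Hochberg adjustment, adjusted p = 0.0179).

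Both Rab1 copies moved in opposite directions while the interval of their sum's ratio included 1, with 614 CPM with scramble and 601 with anti-miR132-3p (ratio 0.979, 0.922 to 1.04). Rab1b was 30.8% (28.9% to 32.7%) of the Rab1 counts with scramble and 37.1% (35.0% to 39.2%) with anti-miR132-3p. Their base composition differs, with 58.9% G and C in the longest transcript of Rab1b and 42.0% in that of Rab1a. With a correction for GC content and length neither was called, as described below.

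Rab6a, which works in retrograde Golgi transport, had 1118 and 1054 counts with scramble and 1032 and 947 with anti-miR132-3p and was not called. Its brain-enriched copy Rab6b had 236 and 229 against 248 and 272, a fold of 1.17 (1.03 to 1.33) that was not called (adjusted p = 0.0632, edgeR's quasi-likelihood test with Benjamini-Hochberg adjustment). Rab18, a Rab of the endoplasmic reticulum and lipid droplets, had 909 and 885 against 775 and 829, 1.07-fold lower (0.999 to 1.14) and not called. For Rab2a, Rab2b, Rab30, Rab33a, Rab33b, Rab34, Rab36, Rab39 and Rab39b no call was made, and Rab43 had 1 to 4 counts per library.

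Rabs of transport from the Golgi to the plasma membrane and cilium summed to 566 CPM with scramble and 540 with anti-miR132-3p, a ratio of 0.955 (0.897 to 1.02). Of 7 tested, 0 were called higher and 2 lower. Rab10, a Rab of exocytic membrane supply in axons, had 124 and 135 counts with scramble and 91 and 95 with anti-miR132-3p. It fell 1.33-fold (1.10 to 1.62), from 70.8 to 53.2 CPM (edgeR's quasi-likelihood test with Benjamini-Hochberg adjustment, adjusted p = 0.0267). An opposite-strand RNA that shares 143 bases of exon with it, Rab10os, had 476 counts with scramble and 573 with anti-miR132-3p, 1.26-fold higher, and without a stated strand setting reads of the overlap cannot be told apart. Rab8a, a Rab of the primary cilium and of exocytosis, had 297 and 297 counts against 236 and 246. It fell 1.18-fold (1.04 to 1.33), from 162 to 138 CPM (edgeR's quasi-likelihood test with Benjamini-Hochberg adjustment, adjusted p = 0.0396).

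Rab8b, the second Rab8 copy, had 79 and 88 counts with scramble and 60 and 71 with anti-miR132-3p and was not called, with a fold of 0.821 (0.648 to 1.04). Rab28 had 417 and 435 counts against 444 and 405 and was not called. Rab23, Rab40b and Rab40c were also not called, and Rab13 had 2 to 7 counts per library. Of the 3 genes placed in no step, Rab42 had 16 and 17 counts against 9 and 13 and was not called, and Rab19 and Rab44 were at 0 in all libraries. For a gene at 0, 3 counts in a library would be 1.64 to 1.72 CPM, which is the level that the depth allows.

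The 12 Rab genes too low to test had at most 7 counts in any library. The Rab pseudogenes named as such held 267 counts over 4 identifiers, against 50537 counts for the family. Of these Rab7-ps1 had 78 with scramble and 65 with anti-miR132-3p, and how reads shared with Rab7 were counted is not given in the sources used here. Exons of Rab6a, Rab24, Rab2b and Rab26 overlap those of Mrpl48, Prelid1, Tox4 and Traf7, and their counts are uncertain in the same way.

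Base composition was weakly related to the fold changes. The 3 Rab genes called higher had a GC content of 49.1% to 58.9%, and the 7 called lower 42.0% to 49.4%. The 37 that were not called spanned 36.8% to 59.5%. Rab5b (49.1%), called higher, lay close to Rab3b (49.3%) and Rab8a (49.4%), both called lower. Over the 47 tested Rab genes, GC content and log2 fold change had a Pearson correlation of 0.22 and a Spearman correlation of 0.29, and over 11273 tested genes the values were 0.22 and 0.25. Genes share their libraries, so these describe the libraries and carry no test. A smooth correction for GC content and transcript length brought the Rab values to 0.05 and 0.05. The correction is fitted to these same libraries to remove such a relation, so this drop was built in.

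With the correction, 2 Rab genes were called higher and 5 lower, beside 19.7% of 11273 tested genes called in either direction. Rab5b (corrected log2 fold change 0.75), Rab5c (0.62), Rab3b (-1.32), Rab21 (-0.59), Rab14 (-0.43) and Rab8a (-0.33) were still called, and Rab11b (-0.22) was called in addition. Rab1a (-0.02), Rab1b (0.10), Rab7 (-0.02) and Rab10 (-0.35) were not, with adjusted p of 0.888, 0.381, 0.810 and 0.0567 by edgeR's quasi-likelihood test with Benjamini-Hochberg adjustment. The opposite calls of the Rab1 copies were therefore not seen after the correction, whereas those of the Rab5 copies and of Rab14, Rab21 and Rab3b were.

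**Figure D4:**
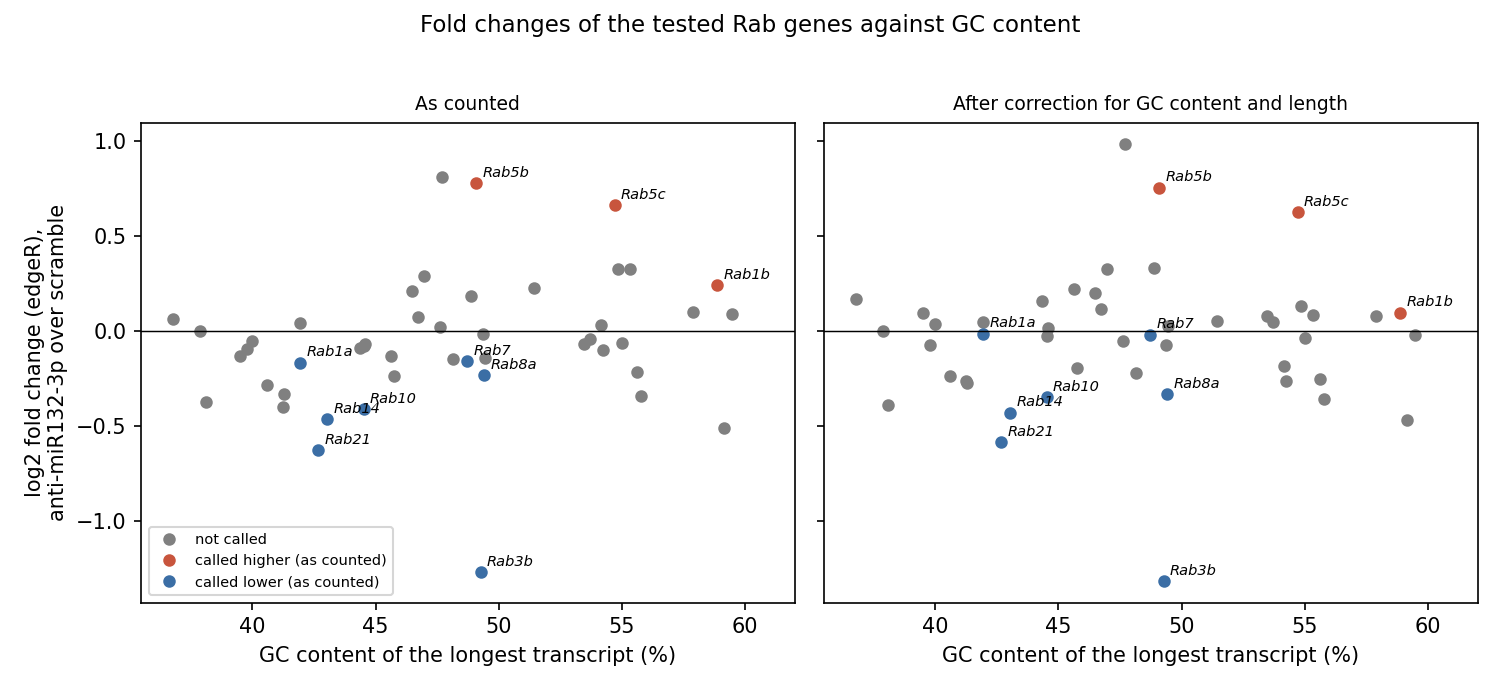
log2 fold change (anti-miR132-3p over scramble) of the 47 tested Rab genes against the GC content of the longest transcript in %, as counted (left) and after correction for GC content and length (right). Colours show the calls made as counted, and Rab1b and Rab1a move from 0.24 and -0.17 to 0.10 and -0.02.

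The 8 tested Rab genes with a seed match had a median log2 fold change of -0.18 (range -1.27 to 0.33), and 3 were above 0 and 5 below. Of these, 0 were called higher and 2 lower by edgeR's quasi-likelihood test, Rab3b and Rab21. In the 39 tested members without a match the median was -0.07. Over all 1477 tested genes with a match the median was 0.01, with 211 called higher and 168 lower. Their 3' UTRs were also longer, with a median of 2.64 kb against 1.19 kb without a match, and for the Rab genes the medians were 2.36 kb and 1.95 kb. A further 5 tested members with only the ACTGTTA form ranged from -0.34 to 0.23, and none was called by edgeR's quasi-likelihood test.

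Genes that load, extract and read the Rabs were described from lists of known regulators. GDP dissociation inhibitors and prenylation factors attach and withdraw Rabs from membranes, and 4 of 10 tested fell, where 10.4% of all tested genes were called lower. Values were above 0 for 4 of the 10 and below 0 for 6, and 0 were called higher by edgeR's quasi-likelihood test. The median log2 fold change was -0.11, or -0.04 after the GC and length correction, against -0.003 for all tested genes as counted. Gdi2, one of the inhibitors, fell from 401 to 347 CPM. Chm, which presents Rabs for prenylation, fell from 128 to 99.3 CPM, and Rabac1, a membrane acceptor of prenylated Rabs, from 151 to 121 CPM. With the correction the count was 4 lower and 1 higher, the latter Rabggtb, a subunit of the enzyme that prenylates Rabs (corrected log2 fold change 0.34).

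Exchange factors, which load GTP, moved both ways, with 6 of 37 tested higher and 5 lower and a median of 0.00. The share called was 29.7%, against 23.8% of all tested genes (13.5% higher, 10.4% lower). Of the 37, 14 were subunits of the TRAPP tethering complexes (2 higher, 4 lower). With the correction 5 exchange factors were higher and 3 lower, the TRAPP subunits among them 2 and 2. Madd, an exchange factor of Rab3 and Rab27, rose from 64.5 to 103 CPM, while Dennd5b fell from 186 to 129 CPM. Of the TRAPP subunits, Trappc9 rose from 27.3 to 54.4 CPM and Trappc2 fell from 107 to 66.1 CPM.

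GTPase-activating proteins, which end the signal, had 5 of 34 tested higher and 1 lower. The share called was 17.6%, against 23.8% of all tested genes (13.5% higher, 10.4% lower). Their median log2 fold change was 0.25, or 0.13 after the GC and length correction. Tbc1d15, the 1 called lower, fell from 117 to 91.3 CPM, a call that the correction kept. Tbc1d17 rose from 76.6 to 99.3 CPM and Rab3gap2, a subunit of the Rab3 and Rab18 regulator, from 41.0 to 58.9 CPM. With the correction 2 were higher and 2 lower, as the calls of Tbc1d10b, Tbc1d16 and Tbc1d17 (log2 0.01) were lost and Tbc1d20 (-0.53) was called lower.

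Effectors, which read the GTP form, had 7 of 37 tested higher and 1 lower. The share called was 21.6%, against 23.8% of all tested genes (13.5% higher, 10.4% lower). Their median was 0.11, or 0.01 after the correction, which called 6 higher and 1 lower. Rph3a (rabphilin), a Rab3 effector on synaptic vesicles, had 252 and 233 counts with scramble and 443 and 430 with anti-miR132-3p. It rose 1.88-fold (1.68 to 2.11), from 133 to 250 CPM (edgeR's quasi-likelihood test with Benjamini-Hochberg adjustment, adjusted p = 2.15e-07), while its partner Rab3a was not called and Rab3b fell. Rbsn, a Rab5 effector of early endosome fusion, rose from 71.9 to 98.7 CPM. Rabep1, another Rab5 effector, fell from 183 to 154 CPM, a call that the correction did not keep (adjusted p = 0.0503, edgeR's quasi-likelihood test with Benjamini-Hochberg adjustment). Rbsn and Rabep1 are only some of the listed effectors. Ankfy1 rose from 32.8 to 52.1 CPM, a call that the correction kept, while Eea1, Appl1 and Appl2 were not called. Rab5b, Rab5c, Rbsn and Ankfy1 were thus higher in the same libraries in which Rabep1 was lower.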

How the data were processed

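Messenger RNA of 2 scramble and 2 anti-miR132-3p libraries was analysed from the deposited table of whole-number counts, which the authors made, with 1731199 to 1846637 counts per library. Per the submitters' processing notes, build GRCm39 was used with HISAT2 2.2.1, Trimmomatic 0.39, SAMtools 1.10 and the Cufflinks tools Cuffdiff and Cuffnorm. Not given in the sources used here are the counting tool, the annotation and the strand setting. Gene names came from tables of identifiers, for 51486 of 78334 identifiers. No coordinates are given, since the annotation at hand (GENCODE M21) is of another build.

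Genes that passed edgeR's filterByExpr (11427, with 98.6% of counts) were tested in R 4.3.3 with edgeR 4.0.16 (TMM scaling, quasi-likelihood F test over all 4 libraries, Benjamini-Hochberg adjustment, threshold 0.05), after the code was tested on simulated data. The 4 libraries leave 2 residual degrees of freedom, beside an estimated prior of 14.1. Whether they came from separate animals is not stated. Since each pair differed by no more than sampling noise (chi-square test over genes with at least 10 counts in a pair of libraries, p = 0.131 and 0.771), p-values measure only the spread between these libraries, which may be technical. Intervals are exact (95%) and cover counting error only. Counts are not molecules, as no molecular identifiers were stated. CPM use library totals for step sums and scaled totals for single genes and subfamilies.

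The genes named were each called member, the 3 of highest level per length, and in each step up to 2 tested members of highest mean level, while others were named as groups, for their paralogs or for their sites, after their values were seen. The members, the steps, and the lists of regulators and markers were chosen with earlier results of these data known. Alternatives covered scaling, filter, test, threshold, replicate block, left-out libraries, pair sums with an assumed spread, and GC and length correction (spline with 4 degrees of freedom).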

Additional observations from a re-analysis of the deposited data

How the results depend on the processing

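In the analysis as reported 3 Rab genes were called higher and 7 lower, with 1540 and 1183 over all tested genes. By setting, the Rab calls (higher, then lower) and those over all genes were as follows. Library totals without scaling factors gave 4 and 4, and 1536 and 888 over all genes. No low-count filter gave 0 and 0 by edgeR (6 and 9 at an unadjusted p under 0.05), and 1 and 2 over all genes. A minimum of 1.5-fold gave 2 and 2, and 969 and 268. Pair sums with an assumed coefficient of variation of 0.1 gave 1 and 1, and 470 and 56, and with 0.2 they gave 0 and 0 (0 and 1 unadjusted), and 50 and 6. DESeq2 gave 1 and 2, and 481 and 274. The exact interval, added after seeing the data, gave 5 and 10. Leaving out 1 library at a time gave 0 to 0 higher and 0 to 2 lower, and 0 to 427 and 0 to 218 over all genes, where the lone library of a group is assumed to vary like the other group. At an unadjusted p under 0.05 these fits had 3 to 4 Rab genes higher and 6 to 9 lower. DESeq2's size factors, a filter of 10 CPM and the GC and length correction (2 and 5, and 1213 and 1013) kept the counts within 1.5 times. The replicate block gave 4 and 8 Rab genes, and 1740 and 1437 over all genes, adding Rab6b and Rab11a. Libraries of the same number share only a number, since their deviations correlated at 0.01. The ratio of the summed Rab level was 0.946, with 0.928 on scaled totals and 0.937 to 0.955 without 1 library. Among the named genes that were not called, Rab31 had a log2 fold change of 0.011 with library totals, against -0.02 as reported, and -0.11 to 0.074 without 1 library. Rab28 ranged from -0.0056 to 0.13 without 1 library, against 0.06. With the GC and length correction Rab11a was at 0.10 and Rab6a at 0.016, against -0.13 and -0.07. The cause of these differences was not tested. Rab3b, Rab14 and Rab5b were called in 9, 8 and 8 of 14 alternatives. Depth limits the low members, such as Rab32 and Rab42.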

Other observations

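Other small GTPases of vesicle traffic and enzymes that act on Rabs were looked up after the values of the Rab genes had been seen, and they are given as values. Arf4, a Golgi GTPase, had 979 counts with scramble and 740 with anti-miR132-3p, 1.26-fold lower (adjusted p = 0.00132, edgeR's quasi-likelihood test with Benjamini-Hochberg adjustment). With the GC and length correction Arf4 was not called (log2 fold change -0.09, adjusted p = 0.411, edgeR's quasi-likelihood test with Benjamini-Hochberg adjustment). Its relative Arf5 had 77 and 113 counts, 1.54-fold higher (adjusted p = 0.0433, edgeR's quasi-likelihood test with Benjamini-Hochberg adjustment), and Arf1, Arf3 and Arf6 were not called. Rala, a GTPase of exocytosis, had 479 and 359 counts, 1.28-fold lower, and Sar1b, which starts coat assembly at the endoplasmic reticulum, had 590 and 467 counts, 1.21-fold lower, both called by edgeR's quasi-likelihood test. With the correction neither was called, Rala being at a log2 fold change of -0.19 and Sar1b, with the sign turned, at 0.16. Ralb and Sar1a were not called. Lrrk2, the kinase that phosphorylates Rab8a and Rab10, had 22 and 25 counts, and Ppm1h, a phosphatase that reverses it, had 585 and 471 counts, 1.19-fold lower (adjusted p = 0.0424, edgeR's quasi-likelihood test with Benjamini-Hochberg adjustment).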
